A study of Homo sapiens with 18 samples.

Results

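RNA sequencing of the Ewing sarcoma cell line TC-71 compared cells given a small interfering RNA (siRNA) against FLI1, called siFLI1, with cells given a negative control siRNA, called siNeg. The comparison used the 6 TC-71 libraries of a series of 18, with 3 libraries per siRNA, and every gene with enough reads in them. Of 58336 gene identifiers in the TC-71 count table, 17085 passed the filter on low counts and were tested. Both siRNAs were transfected at 20 nM with a lipid reagent, and the column names of the table give 48 h. Those names carry the siRNA and the replicate, and it is the table's own name that gives the line of the 6 libraries. The other 12 libraries, from the lines TC-32 and A673 with the same siRNA pair, served only to ask whether the TC-71 response differed. A single siRNA sequence against FLI1 was used, so an effect of the loss of FLI1 sequence and any other effect of that siRNA cannot be told apart.

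Ewing sarcoma is a tumour of bone and soft tissue of the young, driven by a fusion of EWSR1 with an ETS family gene, most often FLI1. The fused protein keeps the ETS domain of FLI1, which reads the letters GGAA, and it is known to turn runs of repeated GGAA units into enhancers and to repress genes of the mesenchymal programme. An siRNA against the FLI1 portion lowers the fusion together with any unfused FLI1 transcript. The genes below are described by role: genes near GGAA runs first, then matrix, adhesion, signalling, cell cycle, metabolism and cell state.

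Depth was between 19685354 and 37234528 counts per library, and the shallowest library, siNeg replicate 2, stood apart on the second principal component, which carried 3.53% of the variance. The first component separated the siRNAs and carried 89.2%. Replicates correlated at 0.991 to 0.994 (Pearson, log2 CPM across genes), and no pair was as close as sampling noise alone would make it. Of the tested genes, 71.9% were called, and the siRNA groups did not overlap for 73.8%. FLI1 gave 52.0, 52.8 and 48 CPM (counts scaled by library size) in the siNeg libraries and 17.2, 17.7 and 19.9 CPM in the siFLI1 libraries, without overlap. Of the Ewing sarcoma markers checked, NKX2-2, PAX7, BCL11B, NR0B1, FLI1 and EWSR1 were all present in siNeg, between 13.3 and 374 CPM on average. CD99, the usual surface marker, could not be checked, since the pseudoautosomal genes hold almost no counts in this table. The summed level of 10 haematopoietic markers was 0.834 CPM in siNeg and 0.831 CPM in siFLI1, with HBB and TYROBP at 0 in every library. Nothing in the labels says that replicates were separate cultures, so every p-value measures only the spread between these libraries, which may be technical. An adjusted p is from the quasi-likelihood test of edgeR with Benjamini-Hochberg adjustment over all 17085 genes, a gene is called at an adjusted p under 0.05, and errors in brackets are standard errors (SE) of the log2 fold change.

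Genes that fell the most in TC-71 often had a long GGAA run near their start in the reference genome. The strongest falls were few and shallow beside the rises: 46 genes were called at least 8-fold lower and 463 at least 8-fold higher. Among the genes called at least 8-fold lower, 21 of 46 (45.7%) had a run of at least 6 gapless GGAA units, on either strand, within 10 kb of the start. The share was 17.2% at 4-fold lower, 7.56% at 2-fold lower, 4.04% over all genes called lower and 2.25% of genes not called. Over the genes called at least 8-fold higher it was 2.39%, beside 2.91% over the 16957 tested genes placed in the annotation (GENCODE release 44, GRCh38). Within 5 kb of the start the shares were lower, at 30.4%, 10.2% and 4.41% of the genes called at least 8-fold, 4-fold and 2-fold lower, beside 1.41% over all tested genes. These shares describe the reference genome and not the genome of TC-71, whose repeats may differ in length.

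**Figure D1:**
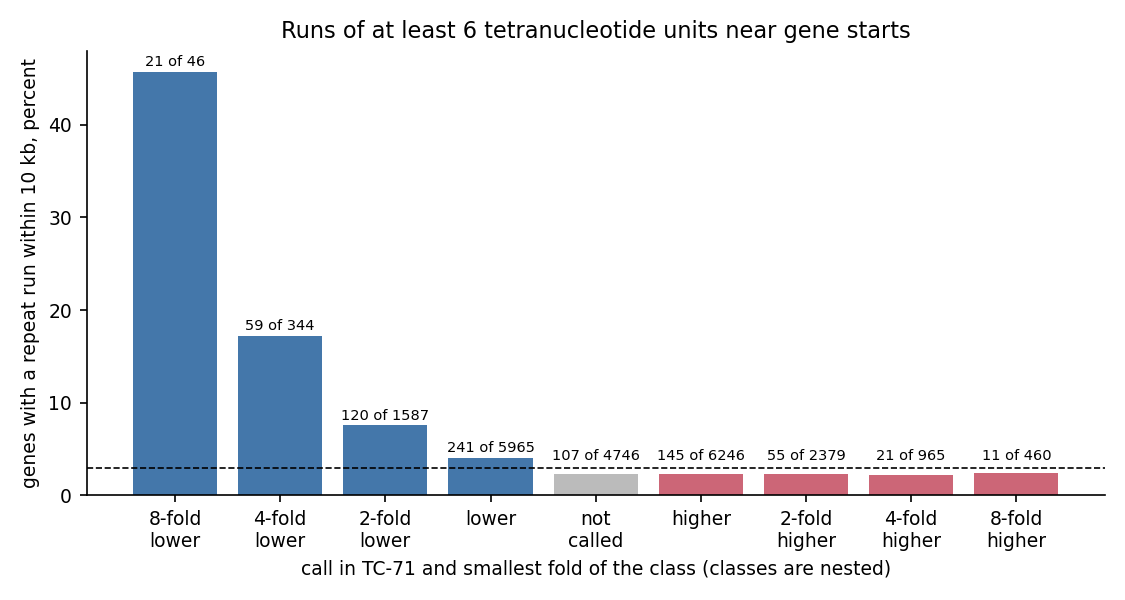
Share of tested genes with a run of at least 6 gapless GGAA units on either strand within 10 kb of the start (y axis, percent), by call and smallest fold in TC-71 (x axis, nested classes, with counts above the bars; the dashed line is the share over all genes tested). The share climbs to 45.7% in the class of the largest falls and stays between 2.18% and 2.39% in every class of genes called higher.

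The runs below, from the GRCh38 genome, are shown because they lie near the genes with the largest falls, near 2 genes known as fusion targets and near 1 gene that did not fall. Each is printed 5′ to 3′ on the strand that reads GGAA, with 20 bases on either side of the run, and capitals mark every GGAA unit. PGLYRP2, SCNN1G, SLFN12L and CACNA1I are among the 15 strongest falls, and CCK and NR0B1 are fusion targets. CAV1 is a contrast in its change only, since it too is in the list of fusion-activated genes. Of the 20 tested genes of that list, 18 fell and 1 rose (median -1.28). All 9 tested genes of the fusion-repressed list rose (median 3.55). Over all tested genes, 35% fell and 36.8% rose.
PGLYRP2 (chr19:15501919-15502014, minus strand): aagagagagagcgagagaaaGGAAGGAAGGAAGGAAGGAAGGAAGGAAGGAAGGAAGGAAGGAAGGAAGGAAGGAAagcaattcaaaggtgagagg
SCNN1G (chr16:23181726-23181817, plus strand): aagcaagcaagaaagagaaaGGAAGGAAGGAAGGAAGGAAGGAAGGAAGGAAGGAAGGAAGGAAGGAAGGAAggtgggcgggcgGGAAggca
SLFN12L (chr17:35530345-35530448, plus strand): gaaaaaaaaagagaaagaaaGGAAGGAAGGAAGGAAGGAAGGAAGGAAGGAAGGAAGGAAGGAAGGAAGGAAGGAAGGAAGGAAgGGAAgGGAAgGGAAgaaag
CACNA1I (chr22:39570229-39570304, minus strand): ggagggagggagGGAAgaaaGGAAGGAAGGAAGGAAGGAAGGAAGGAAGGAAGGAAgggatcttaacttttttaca
CCK (chr3:42266507-42266590, minus strand): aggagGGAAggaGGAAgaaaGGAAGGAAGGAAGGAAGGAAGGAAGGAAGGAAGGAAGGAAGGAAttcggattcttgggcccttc
NR0B1 (chrX:30310738-30310821, minus strand): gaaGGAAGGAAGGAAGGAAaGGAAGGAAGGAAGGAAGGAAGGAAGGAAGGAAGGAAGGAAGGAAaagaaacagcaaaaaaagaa
CAV1 (chr7:116523067-116523170, plus strand): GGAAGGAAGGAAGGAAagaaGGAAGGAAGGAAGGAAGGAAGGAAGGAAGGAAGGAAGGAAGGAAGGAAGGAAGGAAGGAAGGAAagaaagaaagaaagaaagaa

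The run at PGLYRP2 has 14 units and lies 3010 bases upstream of its start, between genes. At SCNN1G a run of 13 units lies 974 bases upstream, inside an intron of an unnamed gene. PGLYRP2 encodes a secreted enzyme that cleaves bacterial cell wall peptidoglycan, and SCNN1G a subunit of the epithelial sodium channel. SLFN12L, a member of the schlafen family, holds a run of 16 units in an intron 7282 bases downstream of its start. The run of 9 units at CACNA1I, which encodes a T-type calcium channel, lies 487 bases upstream. CCK, the gene of the peptide hormone cholecystokinin, has several runs upstream, of which the nearest has 11 units at 363 bases. NR0B1 encodes an orphan nuclear receptor known as a direct fusion target, and its longest run, of 11 units, lies 1389 bases upstream.

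PGLYRP2 gave 23.3, 22.1 and 21.2 CPM in the siNeg libraries and 2.62, 1.84 and 1.83 CPM in the siFLI1 libraries. The groups were far apart, and the log2 fold change was -3.43, SE 0.12, adjusted p = 4.5e-21. SCNN1G gave 103, 96.7 and 109 CPM and 13.2, 9.64 and 10.5 CPM, a change of -3.22, SE 0.08, adjusted p = 1.2e-21. RP11-1258F18.1, a long noncoding gene, was the most abundant of the strongest falls, with 469, 438 and 485 CPM in siNeg and 61.7, 43.6 and 43.9 CPM in siFLI1. Its first siFLI1 library was higher than the other 2. The siRNA groups did not overlap, which the choice of the strongest falls required, and the change was -3.23, SE 0.15, adjusted p = 4.2e-06. CACNA1I went from 29.0, 29.4 and 32.1 CPM to 4.26, 3.06 and 3.69 CPM (-3.04, SE 0.10, adjusted p = 1.7e-21). NR0B1 fell by 2.95 on the log2 scale, from 179, 166 and 171 CPM to 25.6, 22.0 and 19.7 CPM. CAV1, which encodes the caveolar coat protein caveolin 1, has 2 runs upstream, with 16 and 8 units at 1876 and 1774 bases, and did not fall. It gave 313, 315 and 299 CPM in siNeg and 344, 353 and 336 CPM in siFLI1, a small rise of 0.16, SE 0.04, adjusted p = 0.0013.

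The 15 largest falls and rises were taken among called genes whose log2 CPM averaged 1 or more and whose siRNA groups were separate, so scarcer genes such as CCK are not among them. Of the 15 genes with the largest falls, 10 had such a run within 10 kb, and of the 15 with the largest rises, 0. The other falls in this set were RP11-1094M14.5, GABRQ, MYEOV, RP11-552J9.9, AC141928.1, OR4E2, MBD3L3, PHOSPHO1, DLGAP1 and TRAV3, and all 15 log2 fold changes lay between -3.60 and -3.04. GABRQ encodes a subunit of the GABA receptor, DLGAP1 a scaffold protein of the synapse and OR4E2 an olfactory receptor. MYEOV, a gene overexpressed in some myelomas, had no run of this length in the window and gave 83.9, 78.8 and 79.1 CPM in siNeg and 9.13, 7.73 and 7.19 CPM in siFLI1 (-3.34, SE 0.07, adjusted p = 1.3e-25). MBD3L3 belongs to a cluster of near-identical copies on chromosome 19, so the copy its counts come from is uncertain.

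**Figure D2:**
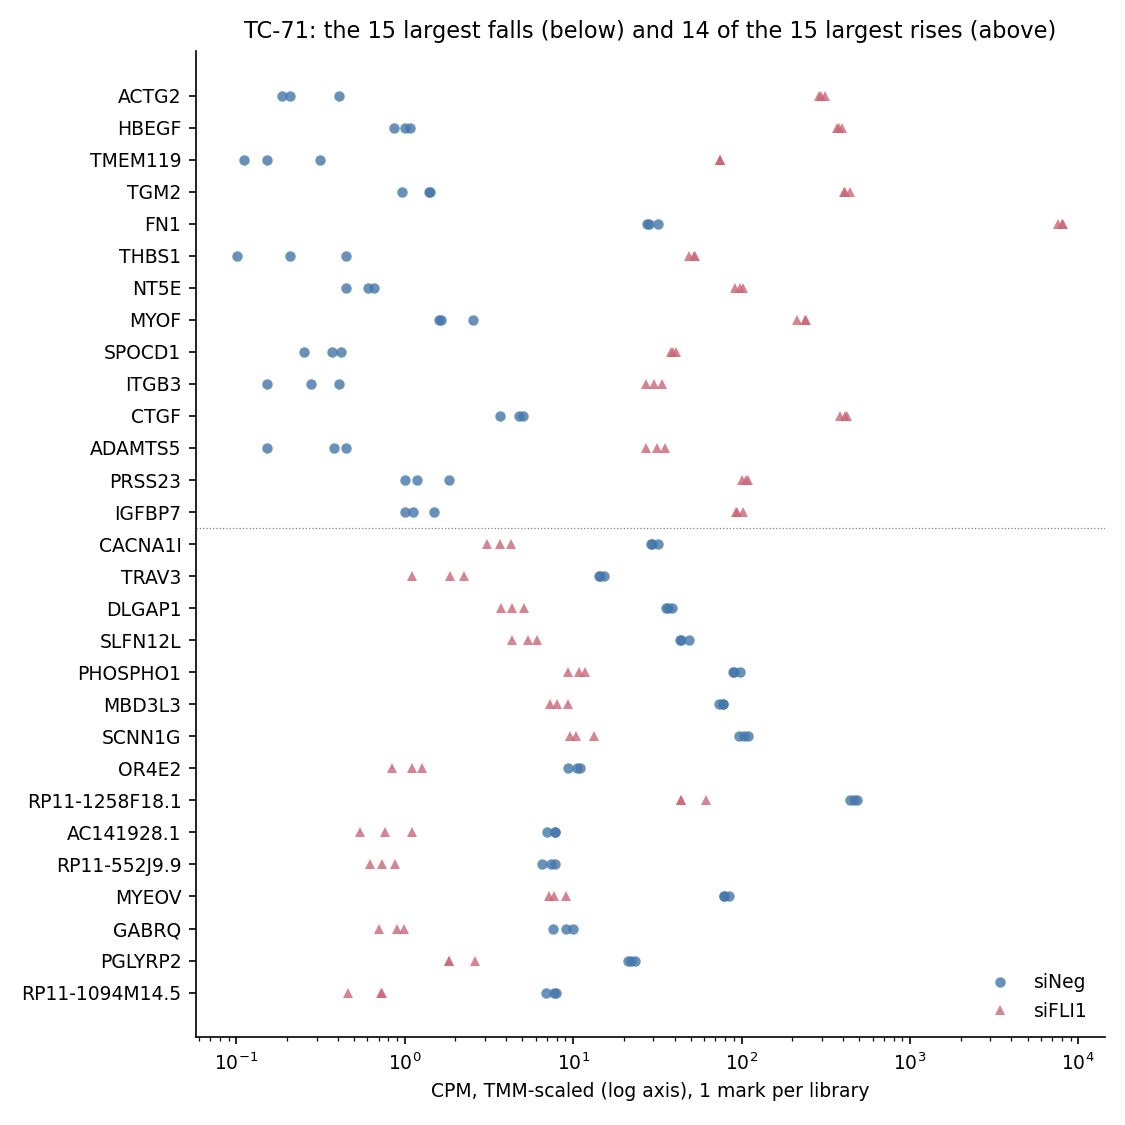
CPM in each TC-71 library (x axis, log scale, 1 mark per library) for 14 of the 15 largest rises, above the dotted line, and the 15 largest falls, below it, ordered by log2 fold change; circles are siNeg and triangles siFLI1. The siRNA groups stand clear of each other in all genes drawn because the genes were chosen so. The rises drawn span 6.30 to 10.19 on the log2 scale against 3.04 to 3.60 for the falls.

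The largest rises were mostly of secreted, matrix and contractile genes that stood under 5 CPM on average in siNeg, with FN1 as the exception. ACTG2, the smooth muscle gamma actin, went from 0.186, 0.406 and 0.208 CPM to 288, 315 and 298 CPM (10.19, SE 0.10, adjusted p = 9.1e-34). Next in size were HBEGF, a ligand of the EGF receptor, and TMEM119, a membrane protein of osteoblasts and microglia, with log2 fold changes of 8.58 and 8.52. TGM2, the tissue transglutaminase that crosslinks proteins, gave 1.41, 0.963 and 1.39 CPM in siNeg and 404, 442 and 413 CPM in siFLI1. NT5E encodes the ecto-nucleotidase CD73, which turns AMP into adenosine, and it rose from 0.446, 0.608 and 0.659 CPM to 91.4, 98.5 and 103 CPM. MYOF, a membrane repair protein of the ferlin family, rose by 6.95 on the log2 scale, and SPOCD1, a gene of transposon silencing in germ cells, by 6.77. PRSS23, a secreted protease, and IGFBP7, a secreted binding protein, closed the set with 6.36 and 6.30. Of the exon bases of PRSS23 and IGFBP7, 12.2% and 18.3% overlap a gene of the other strand, and whether strand was used in counting is not given in the sources used here.

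At 0 counts in every siNeg library and at least 10 in every siFLI1 library stood 44 genes, while no gene showed the reverse. ANKRD1, which encodes a muscle ankyrin repeat protein and is a known target of YAP, held 4042, 4575 and 6294 counts in the siFLI1 libraries (165, 175 and 169.6 CPM). Against the floor of 3 counts per library it was at least 1118-fold higher. ITGA11, the alpha subunit of a collagen receptor, held 440, 489 and 766 counts, at least 126-fold higher. HGF, the ligand of the MET receptor, held 343, 414 and 599 counts, at least 100.8-fold higher. Lower in this set were TINAGL1, a matrix protein, ABCC3, an efflux transporter, and KCNN4, a calcium-activated potassium channel, at least 20.7-fold, 20.3-fold and 10.8-fold higher. The set also held the ETS family gene ERG, at 16 to 27 counts per siFLI1 library.

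Most matrix genes rose. Over all tested genes, 36.8% were called higher and 35% lower, and the median log2 fold change was 0.0181. Of 23 tested matrix glycoproteins and matricellular proteins, which shape the space between cells and its signals, 21 rose and 1 fell, with a median of 4.30. Of 18 tested collagens, 15 rose and 2 fell, with a median of 2.96. The summed level of the glycoprotein list was 675 ± 12.7 CPM in siNeg and 13310 ± 448 CPM in siFLI1 (SD, n = 3), and that of the collagen list was 698 ± 21.3 CPM and 11374 ± 108 CPM. Each siFLI1 library exceeded each siNeg library more than 15-fold in both sums.

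FN1 (chromosome 2, chr2:215360440-215436073) carried most of the glycoprotein sum. It encodes fibronectin, the fibre that links integrins to collagen, and gave 28.1, 27.6 and 32 CPM in siNeg and 7568, 7973 and 8163 CPM in siFLI1. The change of 8.07, SE 0.06, adjusted p = 6.2e-36 was also the largest rise in CPM of any gene. THBS1, the gene of thrombospondin 1, went from 0.446, 0.101 and 0.208 CPM to 48.4, 52.2 and 53.1 CPM (7.57, SE 0.15, adjusted p = 1.0e-26). VCAN, the large proteoglycan versican, went from 1.86, 2.94 and 2.01 CPM to 154, 172 and 186 CPM (6.27, SE 0.10, adjusted p = 2.8e-23). SPARC, a collagen-binding matricellular protein, was already present in siNeg and rose from 80.3 ± 4.20 to 1032 ± 28.9 CPM (SD, n = 3). BGN, the small proteoglycan biglycan, held 1 count in the siNeg libraries together, and its ratio was 241 with a 95% counting interval of 42.9 to 9551. ELN was the member that fell: the gene of elastin gave 166, 154 and 157 CPM in siNeg and 116, 109 and 106 CPM in siFLI1 (-0.53, SE 0.05, adjusted p = 3.0e-11).

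The partners of collagen I stood at unlike levels under both siRNAs and rose by like folds. COL1A1 (chromosome 17, chr17:50184101-50201632) encodes the alpha 1 chain and COL1A2 (chromosome 7, chr7:94394895-94431227) the alpha 2 chain, which normally join in a 2 to 1 ratio. COL1A1 gave 80.2, 83.7 and 83.4 CPM in siNeg and 2478, 2538 and 2469 CPM in siFLI1. The log2 fold change was 4.92 for COL1A1 and 5.60 for COL1A2 (SE 0.35, adjusted p = 7.5e-15 for COL1A2). COL1A2 went from 0.0743, 0.0507 and 0.0694 CPM to only 3.31, 3.14 and 3.74 CPM. Its siNeg values lay under the floor of 3 counts per library, so the size of its fold is uncertain. Per kilobase of exon, on the scale of all 18 libraries, COL1A1 stood at 237 CPM in siFLI1 and COL1A2 at 0.269 CPM. COL3A1, the fibrillar collagen of soft tissue, gave 119, 109 and 123 CPM and 4526, 4530.5 and 4645 CPM (5.28, SE 0.05, adjusted p = 1.6e-34). COL5A2 and COL5A3, which set fibril width, rose by 3.10 and 5.01 on the log2 scale. COL4A1, a chain of basement membrane collagen, stayed at 3 counts or fewer in every library. COL4A6 fell, with a change of -1.43, and COL27A1 changed by -0.33 and lost its call without siFLI1 replicate 1 (adjusted p = 0.127).

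Enzymes that build and cut the matrix moved the same way. Of 16 crosslinking and processing enzymes, 15 rose and 1 fell (median 2.00). LOXL2, a lysyl oxidase that crosslinks collagen, gave 6.28, 7.10 and 7.22 CPM in siNeg and 223, 227.5 and 223 CPM in siFLI1 (5.03, SE 0.06, adjusted p = 1.0e-31). LOXL3, of the same family, was the one that fell (-0.81, SE 0.11, adjusted p = 8.0e-08). Of 16 proteases and inhibitors, 14 rose and 1 fell (median 2.48). MMP2 and MMP14, a gelatinase and the membrane protease that activates it, rose from 35.5 ± 1.21 to 363 ± 7.72 CPM and from 98.5 ± 3.93 to 541 ± 11.7 CPM. The plasminogen activators PLAU and PLAT rose by 6.77 and 5.13 on the log2 scale, from under 1 CPM. TIMP1, an inhibitor of metalloproteinases, fell from 425, 401 and 415 CPM to 271, 253 and 248.4 CPM (-0.69, SE 0.04, adjusted p = 1.1e-14). Genes of the other strand overlap 31% of the exon bases of PLAU and 25.5% of those of LOXL3.

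**Figure D3:**
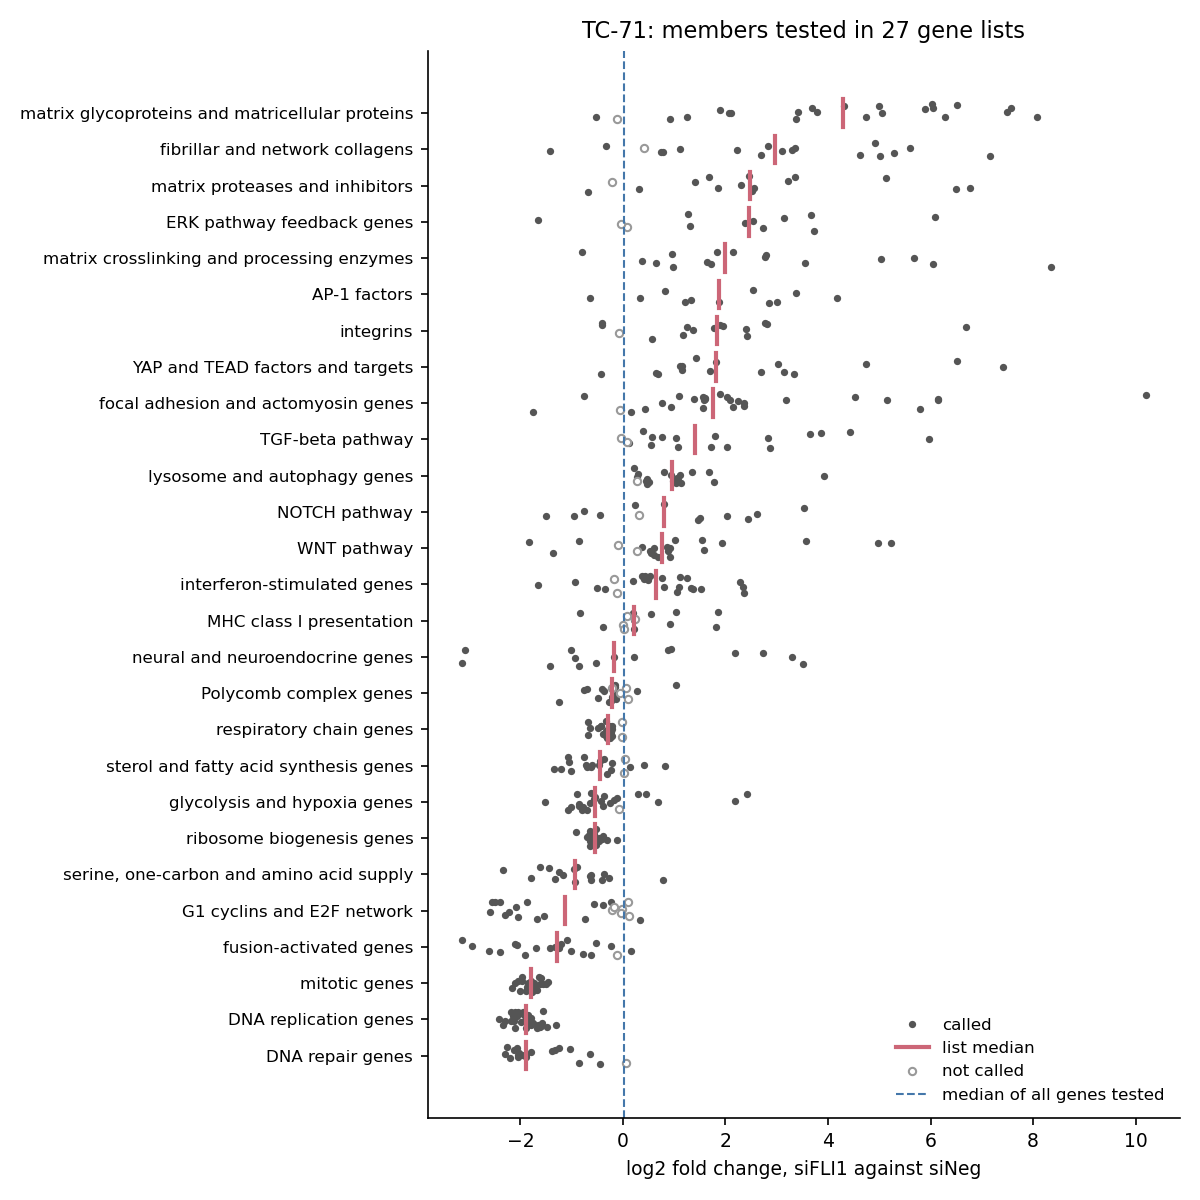
Log2 fold change of siFLI1 against siNeg (x axis) for tested members of 27 of the 51 gene lists (y axis), chosen after their values were seen and filled where called at an adjusted p under 0.05; red ticks are list medians and the dashed line is the median over all genes tested. Not every member counted in the median is drawn, among them genes at 0 in every siNeg library, whose fold is only a bound; of the lists drawn, the glycoprotein and collagen lists sit farthest right, at medians of 4.30 and 2.96, and the mitotic, replication and repair lists farthest left, at -1.79, -1.89 and -1.90. Of the lists not drawn, fibroblast markers, fusion-repressed genes, and chemokines and cytokines also had medians above that of the collagens, at 4.14, 3.55 and 3.44 over 6, 9 and 6 tested genes.

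Most genes of adhesion receptors and of the contractile apparatus rose. Of 16 tested integrins, the receptors that tie matrix to actin, 13 rose and 2 fell (median 1.84). ITGB3, the beta 3 chain, gave 0.408, 0.152 and 0.278 CPM in siNeg and 27.3, 33.9 and 30.3 CPM in siFLI1 (6.69, SE 0.17, adjusted p = 6.0e-24), and another gene of the same strand overlaps 33.2% of its exon bases. ITGAV, its alpha partner for binding vitronectin and fibronectin, rose from 74.3 ± 2.08 to 397 ± 26.2 CPM. ITGB1, the common beta chain, rose by 1.16 on the log2 scale. ITGA5, the partner of ITGB1 in the classical fibronectin receptor, rose less, by 0.56. ITGA2 fell, with a change of -0.40. ITGB4 changed by -0.41 and lost its call without siNeg replicate 1 or siFLI1 replicate 3 (adjusted p = 0.0788 and 0.183).

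Of 28 tested focal adhesion and actomyosin genes, 25 rose and 2 fell (median 1.75), and their summed level was 8267 ± 76.2 CPM in siNeg and 22025 ± 612 CPM in siFLI1. MYH9, the heavy chain of nonmuscle myosin, gave 638, 635 and 655 CPM in siNeg and 2811, 2946 and 2817 CPM in siFLI1 (2.15, SE 0.04, adjusted p = 1.5e-27). FLNA, the actin crosslinker filamin A, rose from 859 ± 39.2 to 2548 ± 94.9 CPM. The smooth muscle genes ACTA2 and CNN1, an actin and its binding protein calponin, started low and rose by 5.79 and 6.15 on the log2 scale. VIM, the intermediate filament of mesenchymal cells, rose from 945 ± 1.59 to 4041 ± 117 CPM, with a gene of the other strand over 24.6% of its exon bases. The members that fell were TNS1, a tensin of fibrillar adhesions, with 128, 129 and 143 CPM in siNeg and 43.5, 38.7 and 37.3 CPM in siFLI1 (-1.75, SE 0.06, adjusted p = 1.2e-20), and PXN, the adaptor paxillin (-0.75, SE 0.04, adjusted p = 8.3e-16). Actin genes are close copies of each other in their coding sequence, and how reads that match several genes were counted is not given in the sources used here.

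The promoter of ACTG2 is shown because this gene had one of the largest rises and holds the CArG box, the letters CC followed by any mix of 6 A or T and then GG, which serum response factor binds. The 250 bases before the start (RefSeq, GRCh38.p14, chr2:73892758-73893007, plus strand) carry 2 such boxes, in capitals, at 110 and 73 bases before the start.
ACTG2 promoter: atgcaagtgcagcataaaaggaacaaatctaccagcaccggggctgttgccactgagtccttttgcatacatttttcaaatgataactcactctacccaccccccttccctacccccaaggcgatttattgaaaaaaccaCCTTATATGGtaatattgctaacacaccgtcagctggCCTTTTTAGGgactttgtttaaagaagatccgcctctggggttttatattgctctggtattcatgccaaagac

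Among the 26 actomyosin genes with a RefSeq promoter, 4 (15.4%) held a CArG box within 250 bases before to 50 after the start, beside 1.29% of all 27305 promoters. The 4 were ACTG2, FLNA, TPM4 and CNN2, and each was called higher, as were 25 of the 28 tested genes of the list. A match describes the letters and does not show that a factor was bound.

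YAP and TEAD form a pathway that reads cell tension and drives matricellular genes. Of 17 tested factors and targets, 16 rose and 1 fell (median 1.81), and their summed level was 509 ± 3.23 CPM in siNeg and 3222 ± 114 CPM in siFLI1. The targets led: CTGF gave 4.75, 5.07 and 3.68 CPM in siNeg and 384, 426 and 411 CPM in siFLI1 (6.52, SE 0.07, adjusted p = 4.2e-31). CYR61, its relative, rose from 43.4, 44.5 and 40.7 CPM to 1116, 1196 and 1113 CPM (4.74, SE 0.05, adjusted p = 2.4e-33). F3, the gene of tissue factor, which starts clotting, rose by 2.69 on the log2 scale. Among the factors, TEAD1 rose from 74.3 ± 0.999 to 241 ± 19.9 CPM and YAP1 by 0.69 on the log2 scale. TEAD4 fell (-0.42, SE 0.07, adjusted p = 5.2e-06). A gene of the other strand overlaps 11.9% of the exon bases of CTGF.

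The CTGF promoter is printed because it holds 3 matches to the TEAD letters GGAATG, in capitals, at 169, 104 and 95 bases before the start (RefSeq symbol CCN2, GRCh38.p14, chr6:131951373-131951622, minus strand).
CTGF promoter: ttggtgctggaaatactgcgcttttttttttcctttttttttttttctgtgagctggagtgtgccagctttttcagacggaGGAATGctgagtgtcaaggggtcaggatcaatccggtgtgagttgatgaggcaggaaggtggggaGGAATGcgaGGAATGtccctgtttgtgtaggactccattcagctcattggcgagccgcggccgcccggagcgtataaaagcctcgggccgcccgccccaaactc

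Of 13 genes of this list with a promoter, 4 (30.8%) held GGAATG on either strand, beside 14% of all promoters. ANKRD1 held 2 matches, at 220 and 128 bases before its start. The letters GGAATG contain GGAA, the core of ETS motifs, so matches to the 2 overlap.

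Most TGF-beta, AP-1 and ERK feedback genes rose. Of 18 TGF-beta pathway genes, 16 rose and 0 fell (median 1.40). TGFB2, a ligand, gave 0.408, 0.507 and 0.486 CPM in siNeg and 28.0, 30.4 and 29.7 CPM in siFLI1 (5.97, SE 0.14, adjusted p = 3.6e-25). The type II receptor TGFBR2 rose from 6.98 ± 0.584 to 88.1 ± 4.58 CPM, and SMAD3, the signal carrier, from 40.7 ± 1.80 to 297 ± 11.6 CPM. LTBP1 and LTBP2, which hold latent ligand in the matrix, rose by 3.86 and 4.42 on the log2 scale, whereas TGFB1, the most abundant of the ligand genes in siNeg, gave 0.11 (adjusted p = 0.046). TGFB1 lost its call under 12 of 13 alternatives, with an adjusted p of up to 0.257. Of 15 BMP pathway and ID genes, 9 rose and 5 fell (median 0.24). ID3 rose by 1.56 and ID2 and ID4 fell, with changes of -0.88 and -0.98, although all encode inhibitors of helix-loop-helix factors.

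Of 11 AP-1 genes, which encode leucine zipper factors induced by growth signals, 10 rose and 1 fell (median 1.88). FOSB gave 1.45, 2.18 and 1.49 CPM in siNeg and 29.4, 32.5 and 28.5 CPM in siFLI1 (4.18, SE 0.12, adjusted p = 6.2e-23). FOS varied more between libraries, with 64.5, 86.6 and 65.1 CPM in siFLI1 against 7.80, 10.3 and 9.06 CPM in siNeg. FOSL2, JUN and JUNB rose by 2.84, 1.32 and 1.88 on the log2 scale. BATF3 fell (-0.64, SE 0.09, adjusted p = 4.4e-07). Of 12 ERK feedback genes, 9 rose and 1 fell (median 2.46). DUSP5, a phosphatase of ERK, rose from 6.83, 5.58 and 5.52 CPM to 50.7, 56.6 and 52.2 CPM, and PHLDA1 and IER3 rose by 3.66 and 3.72. EGR1 was higher in siNeg replicate 2, with 19.2, 34.0 and 20.4 CPM in siNeg and 114, 144 and 115 CPM in siFLI1 (2.37, SE 0.26, adjusted p = 0.0011). ETV5, an ETS factor induced by ERK, fell from 27.1, 25.7 and 26.1 CPM to 9.94, 7.27 and 7.84 CPM.

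Cell division genes fell without exception in 2 lists. All 32 tested DNA replication genes and all 30 mitotic genes were called lower and at least 2-fold lower, where 9.38% of all tested genes were. The medians were -1.89 and -1.79. The summed level of the replication list was 4855 ± 76.5 CPM in siNeg and 1341 ± 122 CPM in siFLI1, and that of the mitotic list was 5590 ± 135 CPM and 1652 ± 117 CPM. No siFLI1 library reached the siNeg libraries in either sum. Whether fewer cells were in cycle or each cycling cell held less of these RNAs cannot be told apart in bulk RNA.

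**Figure D4:**
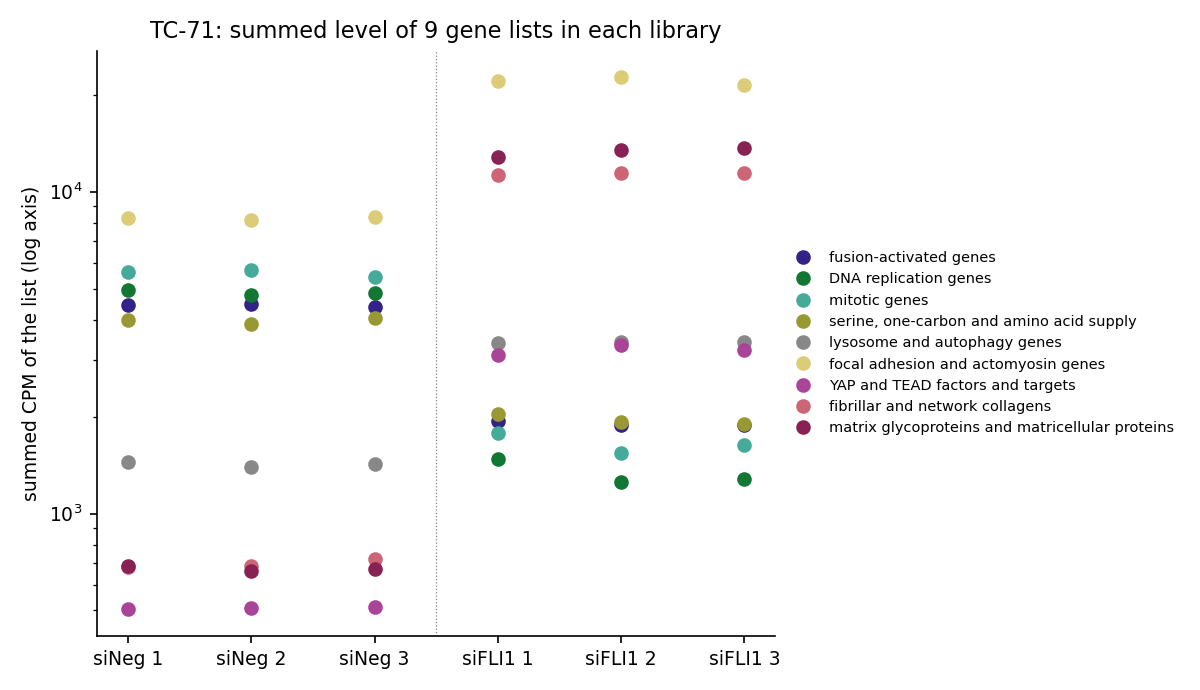
Summed CPM of 9 gene lists (y axis, log scale) in each of the 3 siNeg and 3 siFLI1 libraries of TC-71 (x axis). The replication, mitotic, fusion-activated and amino acid supply lists are lower in every siFLI1 library than in any siNeg library, and the matrix, adhesion, YAP and lysosome lists are higher.

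The replication falls reached from the origin to the fork. CDT1, the licensing factor that loads the helicase, gave 98.0, 100.7 and 102 CPM in siNeg and 21.8, 18.5 and 16.7 CPM in siFLI1 (-2.41, SE 0.07, adjusted p = 1.3e-21). ORC1 and CDC45, at the origin and in the active helicase, fell by 2.19 and 2.30 on the log2 scale. MCM4, a helicase subunit, gave 525, 525 and 510.4 CPM in siNeg and 133, 115 and 114 CPM in siFLI1 (-2.11, SE 0.05, adjusted p = 8.0e-24). POLE, the leading strand polymerase, and RRM1, of the enzyme that makes deoxynucleotides, fell by 1.58 and 1.67. Of the mitotic genes, AURKB, the kinase of the chromosomal passenger complex, gave 102, 99 and 100.6 CPM in siNeg and 26.8, 19.8 and 20.9 CPM in siFLI1 (-2.17, SE 0.08, adjusted p = 2.5e-17). MKI67, the proliferation marker Ki-67, gave 678, 686 and 728 CPM and 225, 198 and 211 CPM (-1.72, SE 0.05, adjusted p = 1.5e-23). TOP2A and CDC20, a topoisomerase and an activator of the anaphase ubiquitin ligase, fell by 1.88 and 1.57. The first siFLI1 library was the highest of its group for CDT1, MCM4, AURKB and MKI67 and still lay below every siNeg library.

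The promoters of 2 such genes are printed because each class carries its own letters. Mitotic promoters are known for the cell cycle homology region (CHR, searched as TTTGAA) and replication promoters for E2F sites (searched as TTTGGCGC and TTTCCCGC), on either strand. PLK1, a mitotic kinase that fell by 1.97 on the log2 scale, has the CHR in capitals at 29 bases before the start (RefSeq, GRCh38.p14, chr16:23678639-23678888, plus strand). CDT1 has the E2F letters in capitals at 35 bases before its start (chr16:88803539-88803788, plus strand).
PLK1 promoter: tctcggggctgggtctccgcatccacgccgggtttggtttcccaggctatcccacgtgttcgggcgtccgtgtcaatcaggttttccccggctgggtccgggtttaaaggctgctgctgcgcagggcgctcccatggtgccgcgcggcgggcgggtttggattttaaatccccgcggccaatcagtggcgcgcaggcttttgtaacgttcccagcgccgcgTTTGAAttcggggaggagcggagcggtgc
CDT1 promoter: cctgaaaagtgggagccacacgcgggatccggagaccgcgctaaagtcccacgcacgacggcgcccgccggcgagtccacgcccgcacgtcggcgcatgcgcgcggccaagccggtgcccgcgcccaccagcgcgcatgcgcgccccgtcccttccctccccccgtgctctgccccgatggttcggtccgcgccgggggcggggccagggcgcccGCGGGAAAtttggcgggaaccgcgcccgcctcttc

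Of 25 mitotic genes with a promoter, 17 (68%) held the CHR, beside 15.4% of all promoters, and 1 of 29 replication genes (3.45%) did. The E2F letters were in 15 of 29 replication promoters (51.7%), in 1 of 25 mitotic promoters and in 2.31% of all. These are properties of the reference promoters of lists that fell as a whole, and they carry no information on binding.

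The regulators of entry into the cycle split. Of 22 G1 cyclin and E2F network genes, 15 fell and 1 rose (median -1.13). CCND1, the gene of cyclin D1 and a known fusion target, gave 1429.9, 1464 and 1418 CPM in siNeg and 299, 267 and 257 CPM in siFLI1 (-2.39, SE 0.05, adjusted p = 1.6e-25). E2F2 and MYBL2, activators of cycle genes, fell by 2.59 and 2.21 on the log2 scale. MYC was less changed, with 637, 625 and 636 CPM in siNeg and 399.8, 385 and 359 CPM in siFLI1 (-0.73, SE 0.04, adjusted p = 1.7e-15). CDK6 was the member that rose (0.33, SE 0.09, adjusted p = 0.0021). Of 7 CDK inhibitors, 4 rose and 2 fell, and 2 rose when siNeg replicate 3 or siFLI1 replicate 3 was left out or when DESeq2 was used. CDKN2B, which blocks CDK4 and CDK6 downstream of TGF-beta, gave 0.0743, 0.152 and 0.0694 CPM in siNeg and 13.8, 15.9 and 14.8 CPM in siFLI1 (7.26, SE 0.22, adjusted p = 2.9e-22). Its siNeg values were at or under the floor of 3 counts per library, so the size of its fold is uncertain. CDKN1A, which encodes p21, rose from 12.3, 13.0 and 13.5 CPM to 61.8, 62.9 and 60.3 CPM (2.25, SE 0.07, adjusted p = 1.0e-22), and CDKN1B was not called, at 0.01. CDKN2C and CDKN2D fell, with changes of -0.69 and -0.81.

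DNA repair genes fell too. Of 20 tested repair genes, 19 fell and 0 rose (median -1.90). RAD54L and EXO1, of homologous recombination and end resection, fell by 2.30 and 2.26 on the log2 scale. SLFN11, whose level is known to go with the response of Ewing sarcoma to DNA-damaging drugs, gave 219, 219 and 228.6 CPM in siNeg and 109, 106 and 110.0 CPM in siFLI1 (-1.04, SE 0.04, adjusted p = 7.3e-19). PARP1, the target of PARP inhibitors, fell by 0.64. Of 15 p53 target genes, 9 rose and 5 fell (median 0.32), with MDM2 lower by 0.18 and CDKN1A higher, so the list had no single direction. Of 15 BCL2 family genes, 8 rose and 4 fell. BMF and BCL2L11, which encode BH3-only promoters of apoptosis, rose by 2.36 and 1.75, PMAIP1, of the same class, fell by 0.60, and the survival gene MCL1 rose by 0.96.

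Metabolic lists had medians between -0.93 and 0.96. Of 17 serine, one-carbon and amino acid supply genes, 16 fell and 1 rose (median -0.93). PHGDH, the first enzyme of serine synthesis, gave 556, 518 and 559.9 CPM in siNeg and 234, 206 and 209 CPM in siFLI1 (-1.33, SE 0.05, adjusted p = 6.1e-20). SLC1A4, a transporter of neutral amino acids, gave 617, 605 and 620.1 CPM and 133, 117 and 114 CPM (-2.34, SE 0.05, adjusted p = 6.9e-26). SLC7A11, the cystine importer, was the member that rose (0.78, SE 0.06, adjusted p = 1.8e-11). ATF4, the transcription factor that induces much of this set, fell by 0.60 and its target CHAC1 by 2.67, whereas the chaperone HSPA5 of the endoplasmic reticulum rose by 0.81. Of 16 unfolded protein response and ATF4 genes, 10 rose and 6 fell (median 0.37), and only 1 fell at least 2-fold. So that list did not fall as a whole.

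Of 18 ribosome biogenesis genes, 18 fell, none as much as 2-fold (median -0.55). NCL, the gene of nucleolin, gave 1491, 1467 and 1442 CPM in siNeg and 966, 909 and 928 CPM in siFLI1 (-0.65, SE 0.04, adjusted p = 3.3e-15). Of 22 nuclear respiratory chain genes, 20 fell and 0 rose, with a median of -0.30. Glycolysis and hypoxia genes were mixed, with 19 of 25 lower and 5 higher (median -0.55). LDHA, which makes lactate, fell by 0.77, PKM, the pyruvate kinase, rose by 0.45, and ADM, a hormone induced by hypoxia, rose by 2.43. Of 22 sterol and fatty acid synthesis genes, 16 fell and 4 rose (median -0.46). FASN, the fatty acid synthase, gave 2342, 2404 and 2533 CPM in siNeg and 1099.8, 1076 and 981 CPM in siFLI1 (-1.21, SE 0.04, adjusted p = 4.6e-20). The desaturases SCD and FADS1 fell by 1.07 and 1.35.

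Lysosome genes went the other way: of 20 lysosome and autophagy genes, 19 rose and 0 fell (median 0.96). PSAP, the precursor of saposins, gave 474, 451 and 469 CPM in siNeg and 1580.1, 1589 and 1595 CPM in siFLI1 (1.77, SE 0.04, adjusted p = 1.4e-25). WIPI1, of autophagosome formation, rose by 3.92 on the log2 scale from a low level, and the cathepsin CTSB by 1.11. The summed level was 1425 ± 26.0 CPM in siNeg and 3394 ± 16.7 CPM in siFLI1.

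Receptors and developmental pathways changed member by member. Of 19 tested receptor tyrosine kinases and their ligands, 14 rose and 5 fell (median 1.16). HBEGF gave 1.08, 0.862 and 1.01 CPM in siNeg and 368, 397 and 378 CPM in siFLI1 (8.58, SE 0.08, adjusted p = 1.6e-34). AXL, a receptor of mesenchymal cells, rose from 3.75, 4.46 and 3.89 CPM to 34.3, 36.6 and 35.6 CPM. PDGFRB, the receptor of pericytes and fibroblasts, rose from 17.1 ± 1.99 to 116 ± 3.29 CPM. FGFR4 fell from 36.2, 35.8 and 37.3 CPM to 10.7, 10.7 and 9.21 CPM (-1.85, SE 0.08, adjusted p = 5.3e-19), while FGFR1 rose by 1.26.

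Of 22 WNT genes, 17 rose and 3 fell (median 0.76). LGR5, a receptor for R-spondins, gave 1.23, 0.862 and 0.763 CPM in siNeg and 26.9, 31.1 and 31.6 CPM in siFLI1 (4.97, SE 0.13, adjusted p = 1.5e-23). The inhibitors DKK2 and SFRP1 fell by 1.36 and 1.84. Of 13 NOTCH genes, 8 rose and 4 fell (median 0.80). The ligands parted, with JAG1 at 53.8, 54.6 and 55.6 CPM in siNeg and 317, 347 and 348 CPM in siFLI1 and JAG2 at 118, 115 and 115 CPM and 44.9, 41.1 and 37.2 CPM. The receptors NOTCH2 and NOTCH3 rose by 1.51 and 1.46, and of the targets HEY1 rose by 2.45 and HES1 fell by 0.45. Of 12 IGF system genes, 9 rose and 3 fell. IGF1R, the receptor on which Ewing sarcoma cells are known to lean, rose by 0.68, and its adaptors IRS1 and IRS2 fell by 0.61 and 1.51. The ligand IGF1 fell by 0.77, and a gene of the other strand overlaps 82.5% of its exon bases.

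Among markers of cell state, the neural and bone lists split between rises and falls, while most mesenchymal stromal markers rose. Of 11 mesenchymal stromal surface markers tested, 9 rose and 2 fell (median 1.16), and the list's sum went from 383 ± 2.98 to 876 ± 29.9 CPM. NT5E, described above, and PDGFRB, a receptor of platelet-derived growth factor, rose by 7.41 and 2.74 on the log2 scale. The falls were those of NGFR, a receptor of neurotrophins, by 1.68, and of THY1, a surface glycoprotein of stromal cells and neurons, by 0.27. Of 15 neural and neuroendocrine genes, 7 rose and 8 fell (median -0.17). MAP2, of neuronal microtubules, gave 11.5, 11.5 and 12.4 CPM in siNeg and 127, 141 and 138 CPM in siFLI1 (3.52, SE 0.06, adjusted p = 7.1e-28), whereas NEFH, a neurofilament, fell by 1.02. Of 9 bone and mineralisation genes, 4 rose and 4 fell: RUNX2, the factor of osteoblasts, rose by 2.10, and PHOSPHO1, a phosphatase of mineralisation, fell by 3.12. Among 7 tested EMT factors and cadherins, SNAI2 gave 6.61, 6.69 and 7.22 CPM in siNeg and 51.4, 53.5 and 55.1 CPM in siFLI1 (2.96, SE 0.08, adjusted p = 3.9e-24), ZEB1 rose by 1.35 and SNAI1 fell by 1.54. PAX7, a factor of muscle stem cells and a known marker of Ewing sarcoma, gave 147, 148 and 160.1 CPM and 31.6, 32.4 and 30.0 CPM (-2.28, SE 0.05, adjusted p = 5.3e-25). SOX2, a stem cell factor, fell by 1.01 and SOX4 rose by 1.94. EZH2, the methyltransferase of the Polycomb complex, fell by 1.24, among 13 lower and 2 higher of 19 Polycomb genes.

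The summed level of 8 fibroblast markers was 226 ± 5.68 CPM in siNeg and 7179 ± 57 CPM in siFLI1, a ratio of 31.8. COL1A1 and COL3A1, described above, made up most of the sum under both siRNAs, so the ratio is largely theirs. All 6 tested members rose (median 4.14), 3 of them the collagens described above. FAP, a protease of activated fibroblasts, gave 7.46, 7.45 and 6.66 CPM in siNeg and 61.9, 64.1 and 70.9 CPM in siFLI1, and LUM, the proteoglycan lumican, rose by 3.37. The sum of 10 epithelial markers went from 164 to 420 CPM through KRT8 and KRT18, keratins of simple epithelia, which rose by 1.20 and 1.43. The sum of 8 endothelial markers was 6.52 CPM in siNeg and 5.70 CPM in siFLI1. The sum of 7 skeletal muscle markers went from 11.1 to 17.96 CPM, and both tested members rose, ACTA1, the skeletal muscle actin, by 3.97 and MYH3, the embryonic myosin heavy chain, by 0.32. The sequence of ACTA1 is close to those of the other muscle actins, so its counts are uncertain. DES and CKM stayed at or under 3 counts in every library, and the muscle factors MYOD1, MYOG and MYF5 were at 0 in all of them.

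Immune genes changed unevenly. Of 24 interferon-stimulated genes, 18 rose and 4 fell (median 0.65). IRF7, a driver of the interferon response, gave 3.27, 3.40 and 2.32 CPM in siNeg and 14.3, 15.9 and 15.1 CPM in siFLI1, and STAT2 rose by 1.53, whereas OAS3, a sensor of double-stranded RNA, fell by 1.66. Of 15 MHC class I genes, 9 rose and 2 fell (median 0.22): HLA-B fell by 0.38 and B2M was not called, at 0.02. HLA genes resemble one another, and how reads shared between them were counted is not given in the sources used here. Of 20 chemokines and cytokines, only 6 passed the filter, and 5 of these rose. CSF1, the growth factor of macrophages, gave 3.27, 4.61 and 3.26 CPM in siNeg and 36.6, 36.2 and 42.0 CPM in siFLI1, and IL11 went from 2.41, 1.88 and 2.36 CPM to 24.9, 26.8 and 24.2 CPM. IL33 rose by 6.26 from near 0.

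The response of TC-71 was then set against that of TC-32 and A673 in one model of all 18 libraries. The siFLI1 effect differed from that in TC-32 for 10507 of 19572 genes (53.7%) and from that in A673 for 10131 (51.8%). Both tests use the same TC-71 libraries. The TC-71 table was made with another counter than the other tables, so the line and the counter cannot be told apart. Depth differed as well, at 114478611 to 120936328 counts per library in A673 and 24085806 to 33650331 in TC-32. The column names of A673, unlike those of TC-71 and TC-32, give no hours, so its time may differ.

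Division genes of TC-71 lay between the other lines. All 30 mitotic and all 32 replication genes had a log2 fold change below that in A673 and above that in TC-32. Of all tested genes, 44.7% lay between the 2 lines in either order, and the share in this order was not counted. The median log2 fold change of the mitotic list was -1.75 in TC-71 in this model, -3.16 in TC-32 and -1.27 in A673, and 30 and 27 of 30 genes passed the test of the difference. All 18 ribosome biogenesis genes also lay between, with medians of -0.51 in TC-71, -1.63 in TC-32 and -0.04 in A673.

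Most contractile and YAP genes and most matrix glycoproteins of TC-71 lay above both lines, while the other matrix lists were mixed. Of 28 actomyosin genes, 20 (71.4%) had a larger log2 fold change in TC-71 than in either other line, beside 33.3% of all tested genes. In any direction, 26 and 24 of the 28 passed the tests against TC-32 and A673. Both tests were passed by 19 with a higher value in TC-71 and by 2 with a lower one. Of 17 YAP and TEAD genes, 12 (70.6%) lay above both lines, and all 17 passed each test in any direction. Of these 17, 12 passed both with a higher value and 0 with a lower one. Over all 17085 tested genes, 2445 passed both tests with a higher value and 1366 with a lower one. Of 23 matrix glycoproteins, 13 (56.5%) lay above both lines, with medians of 4.35 in TC-71, 2.15 in TC-32 and 1.58 in A673. Collagens went the other way against TC-32. Their median was 3.79 in TC-32 and 2.44 in A673 in this model, and 2.96 in TC-71 in the fit of its 6 libraries alone. Among them 3 passed both tests with a larger effect in TC-71 and 6 with a smaller one. Crosslinking and processing enzymes split 4 to 4, and proteases and inhibitors 7 to 2. Of 20 fusion-activated genes, 11 (55%) lay above both lines. The median fall of this list was smaller in TC-71, at -1.24, than in TC-32, at -2.26, or A673, at -1.97. Among its genes 10 passed both tests with a higher value in TC-71 and 1 with a lower one.

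Among the genes with the largest excess over both lines were FN1, VCAN, HBEGF and FLNC. FN1 rose by 8.11 in TC-71 in this model, by 1.52 in TC-32 and by 0.96 in A673, and the differences were 6.59 against TC-32 (adjusted p = 1.2e-38) and 7.15 against A673 (adjusted p = 1.1e-39). In siNeg FN1 stood at 24.3 CPM in TC-71, 12344 CPM in TC-32 and 8023 CPM in A673, and in siFLI1 at 6763, 35518 and 15628 CPM, scaled over the 18 libraries. So TC-71 started far below the other lines and also ended below them. FLNC, the muscle filamin, had the same order of levels, with mean CPM of 0.283 to 20.3 in TC-71, 378 to 463 in TC-32 and 113 to 365 in A673, and its differences were 5.89 against TC-32 (adjusted p = 4.2e-19) and 4.49 against A673 (adjusted p = 2.1e-15). VCAN was highest in TC-71 after siFLI1, with mean CPM of 1.89 to 146 in TC-71, 11.8 to 14.8 in TC-32 and 1.58 to 4.13 in A673, and its differences were 5.99 against TC-32 (adjusted p = 3.0e-23) and 4.93 against A673 (adjusted p = 2.1e-20). HBEGF differed by 7.66 against TC-32 (adjusted p = 1.2e-24) and 4.67 against A673 (adjusted p = 3.1e-25). On the same scale its siNeg libraries gave 0.899, 0.711 and 0.843 CPM in TC-71 and 20.7, 20.1 and 22.3 CPM in A673. Its siFLI1 libraries gave 313, 339 and 326 CPM in TC-71 and 323, 315 and 336 CPM in A673. So HBEGF started lower in TC-71 than in A673 and ended at a like level. In TC-32 it went from 2.99, 2.58 and 1.98 CPM to 5.66, 4.51 and 4.59 CPM.

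The largest deficits were those of ADAMTS15, ADAMTS8, STYK1, PLEKHS1 and the noncoding gene RP5-850O15.3. ADAMTS15 and ADAMTS8 encode secreted metalloproteinases that cleave proteoglycans. ADAMTS15 fell in TC-71 and rose in the other lines, with mean CPM of 18.3 to 7.45 in TC-71, 1.72 to 80.1 in TC-32 and 2.12 to 21.5 in A673, and its differences were -6.84 against TC-32 (adjusted p = 3.4e-31) and -4.64 against A673 (adjusted p = 4.9e-28). ADAMTS8, which has a run of 13 GGAA units 9869 bases upstream of its start, gave 7.43, 8.26 and 7.15 CPM in siNeg and 1.64, 1.68 and 1.51 CPM in siFLI1 in TC-71, and its differences were -5.20 against TC-32 (adjusted p = 1.6e-09) and -4.21 against A673 (adjusted p = 2.1e-08). On the scale of all 18 libraries ADAMTS8 stood near 0 in the other lines, at 0.134, 0.0402 and 0 CPM in siNeg and 0.422, 0.515 and 0.481 CPM in siFLI1 of TC-32, and at 0.0182, 0.0090 and 0.0462 CPM in siNeg and 0.122, 0.0759 and 0.116 CPM in siFLI1 of A673. Its difference against TC-32 was -6.55 without siNeg replicate 1 of TC-32 and -4.655 without siNeg replicate 3, and against A673 -4.93 without siNeg replicate 3 of A673. With each library left out in turn ADAMTS8 passed both tests, but the size of its differences moved with single libraries of few counts. STYK1, a kinase-like protein, differed by -4.00 against TC-32 (adjusted p = 2.3e-04) and -4.53 against A673 (adjusted p = 5.8e-17). It gave 0.0447, 0 and 0.0450 CPM in siNeg and 0.0422, 0.129 and 0.185 CPM in siFLI1 of TC-32, and its difference against TC-32 was -3.40 without siNeg replicate 2 of TC-32. RP5-850O15.3 lost its call against A673 when any siNeg library of A673 or its first siFLI1 library was left out, and against TC-32 without siFLI1 replicate 3 of TC-32. PLEKHS1 was not called in TC-71, at -0.05, and differed by -4.60 against TC-32 (adjusted p = 1.1e-07) and -3.98 against A673 (adjusted p = 1.6e-14). In siNeg of TC-32 it too stood near 0, at 0.0447, 0.0402 and 0.0450 CPM. In siNeg the levels of ADAMTS15, ADAMTS8, STYK1 and PLEKHS1 were higher in TC-71 than in either other line.

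**Figure D5:**
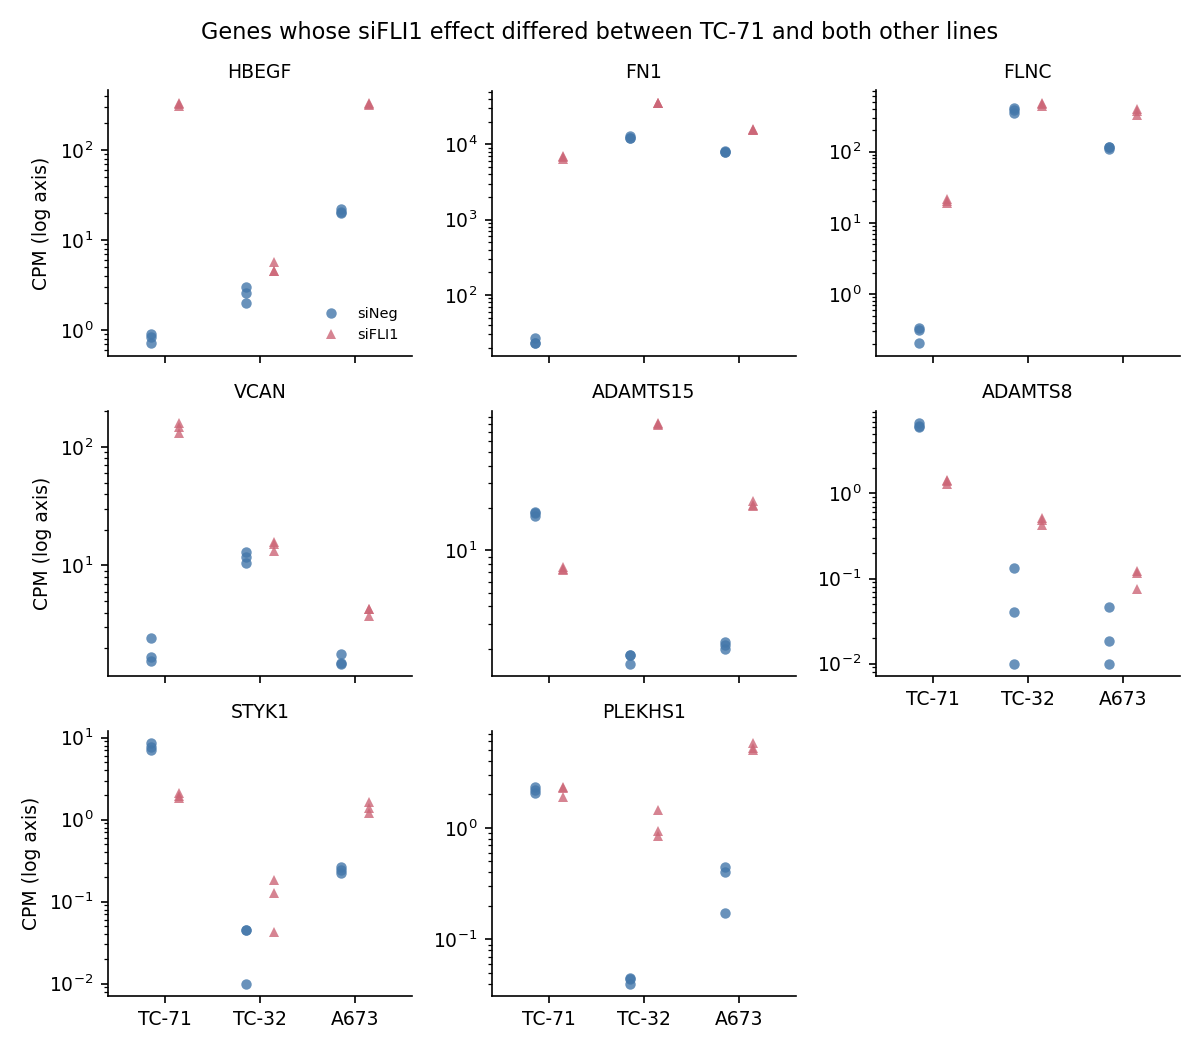
CPM in each library (y axis, log scale, scaled over the 18 libraries) of TC-71, TC-32 and A673 (x axis) for 8 genes with large differences in siFLI1 effect; circles are siNeg, triangles siFLI1, and values under 0.01 CPM are drawn at 0.01. FN1 and FLNC start and end lower in TC-71, whereas ADAMTS8 and STYK1 fall in TC-71 from levels above those of the other lines.

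Some list genes that rose in both other lines stayed at or under 3 counts in TC-71. Of 856 distinct list genes, 75 held 3 counts or fewer in every TC-71 library, and 34 of these were called higher by siFLI1 in both TC-32 and A673. They include the cytokines IL6, CXCL1, CCL2 and CSF2, the collagenase relative MMP3, the WNT inhibitor DKK1, the binding protein IGFBP3, the basement membrane collagen COL4A1 and TNS3. For IL6 the log2 fold change was 7.44 in TC-32 and 5.29 in A673, and for MMP3 8.24 and 5.57. A rise of these genes in TC-71 within the floor of 3 counts per library, 0.0808 to 0.152 CPM, was not detectable at this depth. The matching share over all genes was not counted. The lists were chosen with earlier results of these data known, so the count of 34 is a description only. The TC-71 table was also made with another counter, and its part in these low counts was not tested. For the chains of collagen I, the TC-71 level of COL1A2 after siFLI1, 2.91 CPM on this scale, stood beside 14.9 CPM in TC-32 and 3887 CPM in A673, while COL1A1 reached 2135, 3698 and 2588 CPM.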

How the data were processed

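RNA sequencing counts of 6 TC-71 libraries were analysed, with 12 libraries of TC-32 and A673 for the tests between lines. The TC-71 values are raw read counts per gene as the authors deposited them, and those of TC-32 and A673 are estimated counts from RSEM, per the names of the tables the authors deposited, rounded here to whole numbers. Per the submitters' processing notes, the tools were cutadapt 4.4, STAR 2.7.3, featureCounts, Subread 2.0.3 and limma 3.38.3, with GRCh38. Whether strand was used in counting is not given in the sources used here. Genes passing filterByExpr were scaled by TMM and tested with the robust quasi-likelihood test of edgeR 4.0.16 in R 4.3.3, with Benjamini-Hochberg adjustment, and an adjusted p under 0.05 made a call. The effect between lines was an interaction term over 18 libraries. Fold changes use a prior count of 0.125, and a group at 0 was set at a floor of 3 counts per library. The floor and the counting interval cover counting error only. Named genes were the 15 largest rises and falls whose log2 CPM averaged 1 or more and whose groups were separate, the 5 largest differences in CPM each way, up to 4 risen, 4 fallen and 4 most abundant members of each list, and the 5 largest differences between lines each way, with genes chosen after their values were seen besides. Some genes that this rule names are not reported here. The members and the 51 lists were chosen with earlier results of these data known. Alternatives were other scalings, filters and tools (DESeq2 1.42.0, limma 3.58.1), a replicate block and each library left out. In simulated counts for TC-71, 94.5% of 200 genes changed 2-fold were recovered among 16793 genes, and 5.97% of the calls were false. For the differences against TC-32 and A673, 74% and 84.5% were recovered, with 5.13% and 2.87% of the calls false. The changed genes were drawn from the better counted ones and were far fewer than the genes called in the data. These figures therefore do not cover scarce genes or so broad a change.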

Additional observations from a re-analysis of the deposited data

Results flagged for a closer look

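The siFLI1 effect differed between TC-71 and the other lines by a test of the difference itself, in 10507 genes against TC-32 and in 10131 against A673. Both counts use the same TC-71 libraries, and the counter of the TC-71 table differed from that of the others, so line and counter cannot be told apart. The A673 libraries were also deeper, and their column names give no hours. The genes below are among the largest differences that passed both tests, and each value is the log2 difference to the nearer of the other lines. FN1 exceeded it by 6.59, VCAN by 4.93, HBEGF by 4.67 and FLNC by 4.49. The deficits were -4.64 for ADAMTS15, -4.36 for RP5-850O15.3, -4.21 for ADAMTS8, -4.00 for STYK1 and -3.98 for PLEKHS1. Leaving out 1 library moved some of these: RP5-850O15.3 gave -2.435 without siFLI1 replicate 1 of A673, ADAMTS8 -4.93 without siNeg replicate 3 of A673 and STYK1 -3.40 without siNeg replicate 2 of TC-32.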

How the results depend on the processing

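The number of genes called in TC-71, 12283, lay between 11692 and 12271 with a library left out and between 11502 (DESeq2) and 13141 (no filter on low counts) otherwise. The replicate block gave 12048. Replicate numbers did not pair the libraries: the deviations of same-numbered libraries correlated at 0.0335, 0.00844 and -0.0446. With a library left out, genes that differed from TC-32 numbered 10068 to 10394, and from A673 9526 to 10050. With the block they numbered 10101 and 9579. Shares of genes near a GGAA run moved with its definition. With at least 4 units they were 6.47% of genes called higher, 7.48% of those called lower and 5.90% of those not called. With at least 10 units they were 1.26%, 2.7% and 1.35%, and within 5 kb 0.993%, 2.18% and 0.990%. For genes called at least 8-fold, 4-fold and 2-fold lower they were 45.7%, 20.1% and 11.2% with at least 4 units, 41.3%, 14.2% and 5.73% with at least 10, and 30.4%, 10.2% and 4.41% within 5 kb. Genes that were not called changed sign. CDKN1B gave 0.00502 as reported, -0.003637 with RLE factors, -0.006403 with library size alone, -0.000744 without the filter and -0.003619 with DESeq2. With a library left out it ranged from -0.0272 (without siNeg replicate 1) to 0.03323, with -0.002625 without siNeg replicate 3 and -0.02048 without siFLI1 replicate 2. With a library left out B2M ranged from -0.04179 (without siNeg replicate 3) to 0.06622, with -0.017 without siFLI1 replicate 3, and PLEKHS1 from -0.1105 to 0.05716 (without siFLI1 replicate 3). The cause of these changes was not tested. Of 2534 alternatives for 195 named genes, 2508 kept direction and call. Genes under about 3 counts per library were beyond this depth.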
